A study of Mus musculus with 27 samples.

Results

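The microRNA genes described here are the 132 probe sets of a mouse gene array that carry a single microRNA gene symbol and gave a mean log2 signal of at least 7 in vector cells before induction. They stand for 129 symbols. They were taken from 305 single-symbol microRNA probe sets, among 21789 probe sets with a single gene symbol and 28853 in all. Of the 132, 126 name a hairpin gene and 6 a host transcript: Mir100hg, Mir17hg and 4 probe sets of Mir99ahg, given here with their probe set numbers. The members were thus chosen by the signal of the 3 vector arrays at 0 h, and every comparison with those arrays is given as a description without a test. The nearest members above the level were Mir155 at 7.02, Mir181a-2 at 7.02 and Mir713 at 7.04. The nearest probe sets below it were Mir670hg at 6.97, Mir532 at 6.97 and Mirlet7a-1 at 6.96.

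Total RNA came from 3T3-L1, a clonal mouse fibroblast line that can form fat cells. The cells carried the empty pMIG vector or a Flag-ISL1 construct, and ISL1 is a LIM homeodomain transcription factor. The inducing mixture held biotin (400 nM), the glucocorticoid dexamethasone (250 nM), the phosphodiesterase inhibitor IBMX (0.5 mM), which lets cAMP build up, and insulin (350 nM) in medium with 10% fetal calf serum. It was given to cells 2 days past confluence. The 9 groups hold 3 arrays each, described as biological triplicates: vector cells untreated (0 h) or after 0.5, 1, 2, 4, 8 or 48 h, and cells with the ISL1 construct untreated or after 48 h. P-values measure the spread between these arrays. In bulk RNA, fewer cells of a type and less RNA per cell cannot be told apart. The labels of the 21 later arrays carry a sample code that those of the 6 arrays at 0 h lack, and the sources used here do not say what it stands for.

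The Isl1 signal went against the labels at 48 h. It read 7.37, 7.47 and 7.17 in vector cells and 12.64, 12.62 and 12.61 in ISL1 cells at 0 h. At 48 h it read 12.79, 12.76 and 12.72 in the arrays labelled vector and 7.48, 8.01 and 7.47 in those labelled ISL1. No array was reassigned. Each 48 h group is therefore named by its label. Throughout, the 48 h arrays labelled vector are those with high Isl1, and those labelled ISL1 are those with low Isl1. Compared with vector 8 h, the arrays labelled vector differ in both time and Isl1 signal. Of the fibroblast markers, Col1a1 and Pdgfra averaged 12.97 and 13.18 at vector 0 h. The means of 4 macrophage and blood markers and of 3 endothelial markers stayed between 6.77 and 7.35 in all 27 arrays, and those of 3 epithelial and 3 muscle markers between 7.21 and 8.02. The mean of 6 adipocyte markers lay between 10.75 and 10.86 in the vector arrays at 0 h and between 8.04 and 8.22 in the ISL1 arrays at 0 h. At 48 h it lay between 9.88 and 10.07 in the arrays labelled vector and between 11.85 and 12.03 in those labelled ISL1.

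A microRNA is cut from a long primary transcript. Drosha with Dgcr8 frees a hairpin, exportin 5 carries the hairpin out of the nucleus, and Dicer cuts it to the short mature strand that Argonaute proteins hold. The seed near the strand's 5′ end pairs with target messages, so genes with the same seed can act on the same targets. In fat cell formation miR-27 and miR-130 are known to lower the message of Pparg, the fat cell master regulator, and miR-143 is known to favour the process. The mature strands themselves were not measured apart from their genes, so each value below is the signal of a probe set named for the gene.

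Mature strands are shown for the members on which the results turn, because members with the same seed had different profiles in some families, though not in all. They come from RefSeq for GRCm38.p6, are written 5′ to 3′, and carry the seed (bases 2 to 8) in capitals. A sequence was matched for 114 of the 132 members. Mir99a, Mir100 and Mir99b share 1 seed, and the first 2 were low at 8 h while the last was level.
mmu-miR-99a-5p: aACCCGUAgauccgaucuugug
mmu-miR-100-5p: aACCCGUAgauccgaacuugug
mmu-miR-99b-5p: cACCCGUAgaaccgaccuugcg
Mir130a and Mir301 share a seed and were both far lower in every array after 0 h.
mmu-miR-130a-3p: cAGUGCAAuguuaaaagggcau
mmu-miR-301a-3p: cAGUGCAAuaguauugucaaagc
Mir199a-1 and Mir199b make the same 3p strand, and their signals parted after 0.5 h.
mmu-miR-199b-3p: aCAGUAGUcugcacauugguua
The 5 Mir181 members share a seed, with Mir181b-1 and Mir181b-2 making the same 5p strand.
mmu-miR-181b-5p: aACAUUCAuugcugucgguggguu
mmu-miR-181c-5p: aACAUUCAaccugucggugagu
mmu-miR-181d-5p: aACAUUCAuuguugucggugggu
The strands of Mirlet7c-1, which fell between 0.5 and 8 h, of Mir27a, which was lower in both 48 h groups than at 8 h, and of Mir155 and Mir146b, which differed between the 48 h groups, are shown for those results.
mmu-let-7c-5p: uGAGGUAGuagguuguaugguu
mmu-miR-27a-3p: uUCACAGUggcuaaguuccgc
mmu-miR-155-5p: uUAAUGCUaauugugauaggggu
mmu-miR-146b-5p: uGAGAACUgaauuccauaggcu
The hairpins of Mir99a and Mirlet7c-1 lie on chromosome 16 at chr16:77598936-77599000 (plus strand) and chr16:77599657-77599750 (plus strand). Mir100 lies on chromosome 9 at chr9:41531425-41531504 (plus strand), and Mir125b-1 at chr9:41581926-41582002 (plus strand). Mir130a lies at chr2:84741115-84741178 (minus strand) and Mir301 at chr11:87113004-87113089 (plus strand), so the pair with a shared seed comes from different chromosomes, the latter from within the gene Ska2.

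The level of a microRNA probe set followed the base composition of its hairpin. Over the 260 microRNA probe sets with a hairpin sequence, the vector 0 h signal and the share of G and C bases had a Spearman rho of 0.75 and a Pearson r of 0.73, as a description across probe sets that share arrays. The median share of G and C was 54.3% in the 105 members with a hairpin sequence and 43.7% in the 155 probe sets below the level. For this reason, and because the values are not per length, an order of signals between members is not read as an order of abundance. Of the members, 71 reached 8 and 5 reached 10 at vector 0 h. The highest signals were those of Mir692-1 at 11.49, Mir100hg, the host transcript of Mir100, at 11.44 and Mir199a-1 at 10.45.

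**Figure D1:**
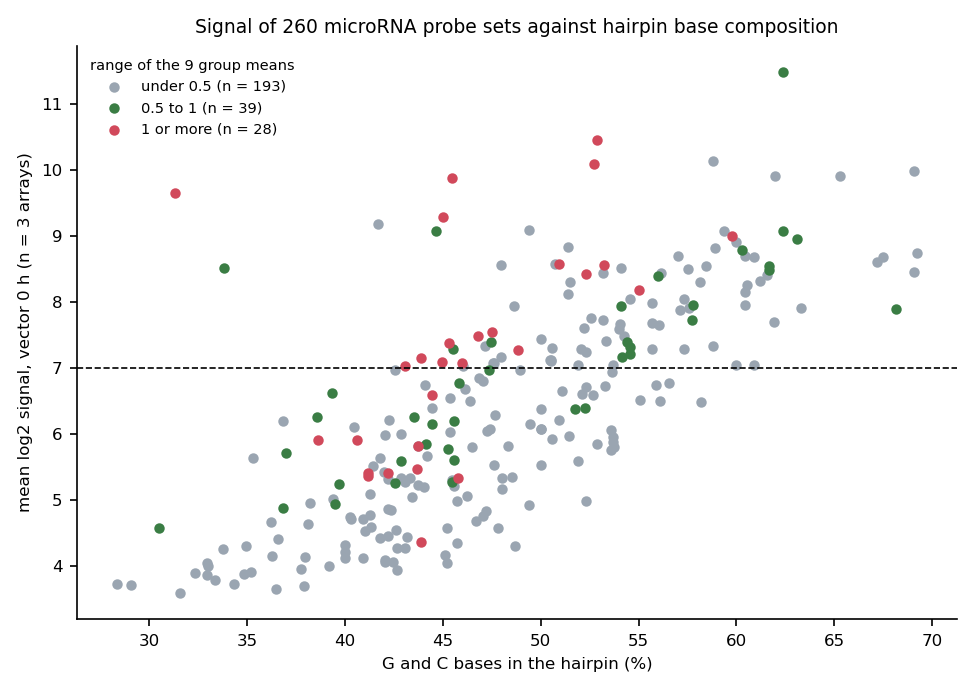
Mean log2 signal in the 3 vector arrays at 0 h (vertical axis) against the percentage of G and C bases in the hairpin (horizontal axis) for 260 microRNA probe sets, coloured by the range of the 9 group means. The dashed line marks the level of 7 that chose the members. Signal rises with base composition (Spearman rho 0.75).

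The signals of most members barely moved. A level of 7 does not show that a gene is expressed. Array medians lay between 7.89 and 8.07, and the means of the epithelial and muscle markers between 7.21 and 8.02. A narrow range is therefore not read as steady expression. The range of the 9 group means was under 0.5 for 84 members, 0.5 to 1 for 22 and 1 or more for 26, of which 7 reached 2. The median range was 0.39, beside 0.63 for the 15778 single-symbol probe sets that pass the same level, and the median SD within a group was 0.13. A range of 1 or more was found for 19.7% of members and 27.3% of those probe sets. The median share of G and C in the hairpin was 47.2% for 18 members with a range of 1 or more, 56% for 19 with a range from 0.5 to 1 and 55.7% for 68 with a range under 0.5. The other 8 members with a range of 1 or more, Mir145a among them, were not matched to a hairpin sequence. The part of base composition in these differences was not tested.

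Members with a narrow range include groups known to respond to signals in this mixture or to mark other states. Whether their signals stand above background was not tested. Mir132 and Mir212, known as cAMP-responsive genes, had ranges of 0.20 and 0.23 (F test adjusted p = 0.889 and 0.962), and Mir210, known for its response to low oxygen, had 0.45. Of the Dlk1-Dio3 cluster, an imprinted region of many microRNAs, Mir127, Mir134, Mir337, Mir341, Mir370, Mir409, Mir431, Mir485, Mir487b, Mir540, Mir665, Mir666, Mir667, Mir668, Mir673 and Mir679 were members, and their ranges ran from 0.13 (Mir409) to 0.46 (Mir665). The 2 Mir26 members had ranges of 0.34 (Mir26a-1) and 0.27 (Mir26b). Mir378a had 0.32 and Mir34b 0.30. Mir107 had 0.49, Mir195a 0.39 and Mir497 0.31. Mirlet7i had the narrowest range of all members at 0.11, with the seed of Mirlet7c-1. Of other members that share a seed, the ranges were 0.36 and 0.26 for Mir7-1 and Mir7-2, 0.18 and 0.54 for Mir138-1 and Mir138-2, 0.29 and 0.19 for Mir194-1 and Mir194-2, 0.33 and 0.19 for Mir219a-1 and Mir219a-2, and 0.31 and 0.19 for Mir449a and Mir449c. Of the 3 Mir680 copies, Mir680-1 had 0.74, Mir680-2 0.47 and Mir680-3 0.30.

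Over the hours from 0.5 to 8 in the mixture, which leave out the arrays that chose the members, 49 of 132 members (37.1%) changed by limma's moderated F test with Benjamini-Hochberg adjustment, beside 49.9% of all probe sets tested. Between 0.5 and 8 h, 42 members passed the test, 23 higher and 19 lower. The background was 40.8% of all probe sets in either direction, 20.2% higher and 20.7% lower. The median difference was 0.06 for members and 0.05 for all probe sets. Of the 42 calls, 29 held under every alternative tried. Of the markers, 5 of 7 for fibroblasts and 5 of 6 for adipocytes were lower at 8 h than at 0.5 h, and their part in the members' changes was not tested. The first step, 0.5 to 1 h, gave 3 higher and 8 lower members beside a background of 3.38% (1.76% higher and 1.62% lower). The next steps gave 14 higher and 8 lower (1 to 2 h, background 20.2%, of which 9.31% higher and 10.9% lower), 6 and 6 (2 to 4 h, 27.5%, of which 13.4% higher and 14.0% lower), and 2 and 7 (4 to 8 h, 23.3%, of which 13.3% higher and 10.0% lower). The last of these counts, 9 in all, was 5 without vector 8 h array 1 and 16 without vector 8 h array 2. After a further quantile normalization the split of the first step was 5 higher and 7 lower.

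**Figure D2:**
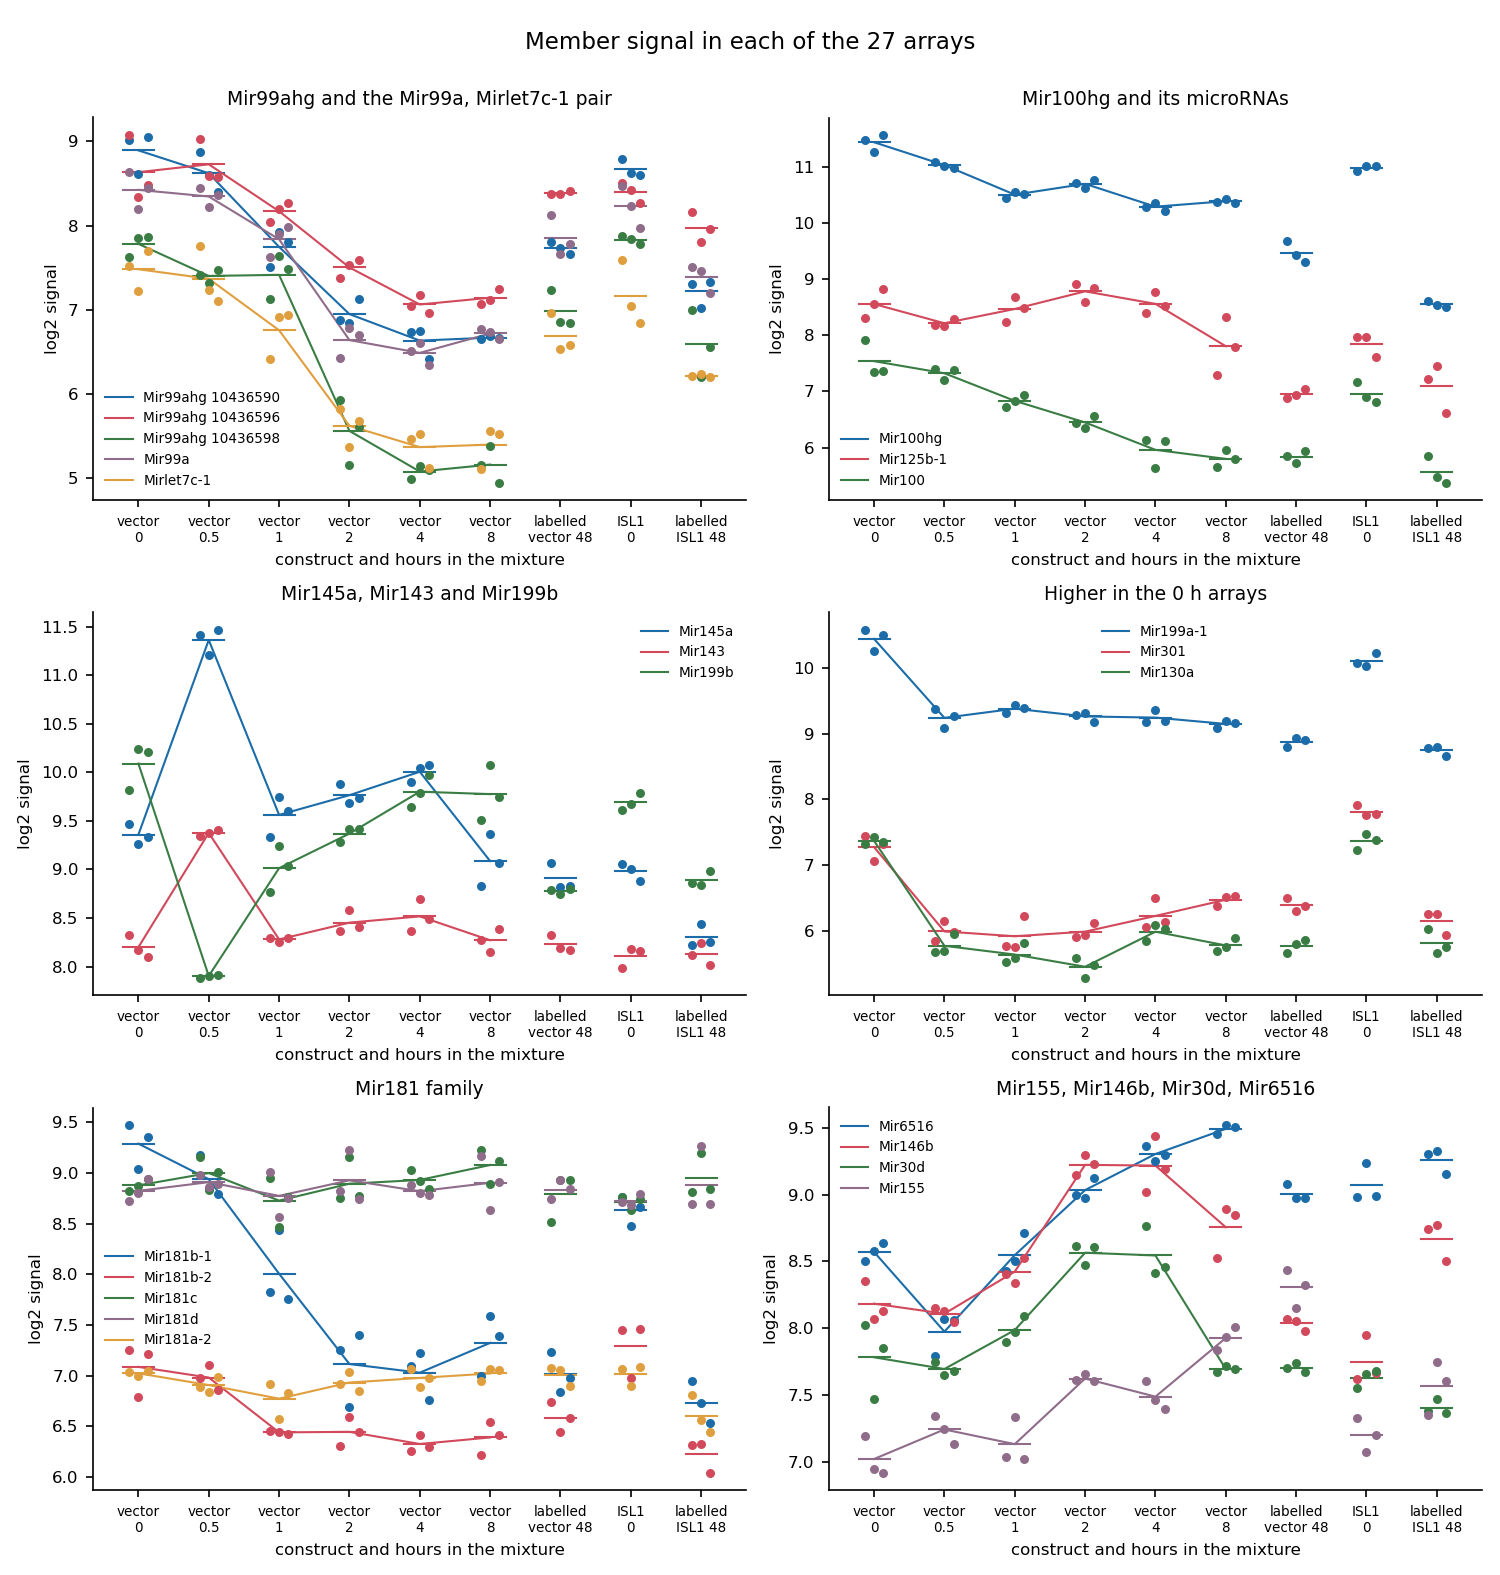
Log2 signal of selected members in each of the 27 arrays, in 6 panels. Points are single arrays, short bars are group means of 3 arrays, lines join the vector means from 0 to 8 h, and the horizontal axis gives construct and hours in the mixture (not to scale in time). The Mir99ahg group is lower from 2 h on than at 0.5 h and higher again at 48 h, Mir145a peaks at 0.5 h where Mir199b is lowest, and Mir130a and Mir301 are high only in the 6 arrays at 0 h.

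The Mir99a and Mirlet7c-1 hairpins and 3 probe sets of Mir99ahg, the long transcript known to host them, all fell between 1 and 2 h. Let-7 microRNAs are known to mark differentiated cells, and miR-99a is known to act on mTOR and insulin-like growth factor signalling. Mirlet7c-1 read 7.76, 7.24 and 7.11 at 0.5 h, 6.42, 6.91 and 6.94 at 1 h, 5.82, 5.36 and 5.68 at 2 h and 5.10, 5.56 and 5.53 at 8 h. Every array from 2 to 8 h lay below every earlier one, and the difference between 0.5 and 8 h was -1.97 ± 0.191 (adjusted p = 2.67e-09). Mir99a read 8.45, 8.22 and 8.37 at 0.5 h, 7.63, 7.90 and 7.98 at 1 h and 6.42, 6.79 and 6.71 at 2 h. Its largest step was between 1 and 2 h, where it fell by 1.20 ± 0.136 (adjusted p = 1.97e-07) with no overlap of arrays.

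The probe sets along Mir99ahg did not move in step. Mir99ahg 10436590 read 8.88, 8.60 and 8.39 at 0.5 h and 7.51, 7.92 and 7.81 at 1 h, and fell by 0.88 ± 0.129 at that step (adjusted p = 4.96e-05) and fell by 0.80 ± 0.129 at the next (adjusted p = 3.52e-05). Mir99ahg 10436598 read 7.12, 7.64 and 7.48 at 1 h, overlapping its 0.5 h arrays, and 5.92, 5.15 and 5.61 at 2 h, a difference of -1.86 ± 0.172 (adjusted p = 7.61e-09). Its further difference of -0.48 ± 0.172 from 2 to 4 h (adjusted p = 0.0379) was lost on leaving out vector 2 h array 1 or 3 or any vector 4 h array, with arrays centred on their medians, after quantile normalization and with only the arrays of these groups fitted (adjusted p up to 0.275). Mir99ahg 10436596 fell by 1.59 ± 0.139 between 0.5 and 8 h (adjusted p = 4.25e-10). Its first step of -0.56 ± 0.139 (adjusted p = 0.0189) was lost on leaving out vector 0.5 h array 1 or vector 1 h array 1, with arrays centred on their medians and with only the arrays of these groups fitted (adjusted p up to 0.186). Its step of -0.44 ± 0.139 from 2 to 4 h (adjusted p = 0.0176) was lost on leaving out vector 2 h array 2 or 3 or vector 4 h array 1 or 3 (adjusted p up to 0.0759). The remaining probe set, Mir99ahg 10436588, had a range of 0.21 over the 9 group means and passed no test. Over the 9 group means Mirlet7c-1 had r = 0.99 with Mir99a and r = 0.98 with Mir99ahg 10436590.

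At 48 h these genes were above their 8 h level in the arrays labelled vector (high Isl1) and in those labelled ISL1 (low Isl1). Against 8 h, Mir99ahg 10436598 rose by 1.82 ± 0.172 in the arrays labelled vector (adjusted p = 3.01e-09) and by 1.43 ± 0.172 in those labelled ISL1 (adjusted p = 2.34e-07). Mirlet7c-1 rose by 1.29 ± 0.191 (adjusted p = 4.07e-06) and 0.82 ± 0.191 (adjusted p = 0.00134), with 48 h arrays of 6.96, 6.53 and 6.58 and 6.21, 6.23 and 6.20. Mir99a rose by 1.14 ± 0.136 and 0.67 ± 0.136 (adjusted p = 1.42e-07 and 0.000301). Mir99ahg 10436596 rose by 1.25 ± 0.139 and 0.83 ± 0.139 (adjusted p = 4.63e-08 and 2.83e-05). Mir99ahg 10436590 rose by 1.07 ± 0.129 and 0.55 ± 0.129 (adjusted p = 1.87e-07 and 0.00138). The 5 together made up the 5 largest of 7 rises from 8 h to the arrays labelled vector at 48 h.

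Mir100hg, the host transcript of Mir100 and Mir125b-1 on chromosome 9, was lower at 8 h than at 0.5 h and lower still at 48 h. It read 11.10, 11.03 and 10.98 at 0.5 h, 10.44, 10.56 and 10.52 at 1 h, 10.29, 10.36 and 10.22 at 4 h and 10.38, 10.43 and 10.36 at 8 h, so that the last arrays lay below all at 0.5 h, with a difference of -0.64 ± 0.080 (adjusted p = 2.17e-07). From 2 to 4 h it fell by 0.41 ± 0.080 (adjusted p = 0.000298). Mir100 read 7.40, 7.20 and 7.38 at 0.5 h, 6.72, 6.83 and 6.94 at 1 h, 6.43, 6.35 and 6.55 at 2 h and 5.65, 5.95 and 5.79 at 8 h, a difference of -1.53 ± 0.146 between the first and last (adjusted p = 2.06e-09). The arrays of these 2 times did not overlap. Its step of -0.49 ± 0.146 from 2 to 4 h (adjusted p = 0.0121) was lost on leaving out vector 2 h array 3 or vector 4 h array 2 (adjusted p up to 0.129). Mir125b-1 stayed near its early level up to 4 h, at 8.40, 8.76 and 8.52, and read 7.29, 8.33 and 7.80 at 8 h with 1 array still near the others. That step of -0.76 ± 0.200 (adjusted p = 0.0061) was lost on leaving out vector 8 h array 1 and with only the arrays of these groups fitted (adjusted p up to 0.0741). By 48 h the arrays labelled vector (high Isl1) read 6.87, 6.93 and 7.03. They were lower than at 8 h, at -0.86 ± 0.200 (adjusted p = 0.00103). Over the 9 group means Mir100hg had r = 0.84 with Mir100 and r = 0.75 with Mir125b-1.

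Other members with the same seeds moved less or not at all over these hours. Mir99b, with the seed of Mir99a and Mir100, had a range of 0.17 and group means of 8.97 at 0.5 h and 8.89 at 8 h. Its neighbours on chromosome 17, Mirlet7e and Mir125a, carry the seeds of Mirlet7c-1 and Mir125b-1 and averaged 8.53 and 8.55 at 0.5 h and 8.55 and 8.61 at 8 h. Neither passed the test between those times. Both were lower in the 48 h arrays labelled vector (high Isl1) than at 8 h. Mirlet7e fell by 0.38 ± 0.082 and Mir125a fell by 0.51 ± 0.106 (adjusted p = 0.000478 and 0.000334). Mirlet7d had group means from 8.34 to 9.11, with the lowest means in the 48 h groups.

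Among the 5 Mir181 members, known for a role in lymphocytes, those named b fell between 0.5 and 8 h and the other 3 did not pass the test. Mir181b-1 read 9.18, 8.84 and 8.80 at 0.5 h, 7.82, 8.44 and 7.76 at 1 h and 7.26, 6.69 and 7.40 at 2 h. It fell by 0.93 ± 0.191 at the first of these steps (adjusted p = 0.00321) and fell by 0.89 ± 0.191 at the next (adjusted p = 0.000996), each without overlap of arrays. Mir181b-2 read 6.98, 7.10 and 6.86 at 0.5 h and 6.46, 6.44 and 6.42 at 1 h, a step of -0.54 ± 0.128 (adjusted p = 0.0119) that was lost on leaving out vector 0.5 h array 2 (adjusted p up to 0.0924). Between 0.5 and 8 h Mir181b-2 fell by 0.59 ± 0.128 (adjusted p = 0.000379) and Mir181b-1 fell by 1.62 ± 0.191 (adjusted p = 8.76e-08). Mir181c and Mir181d, which lie together on chromosome 8, had ranges of 0.36 and 0.20. Mir181a-2, beside Mir181b-2 on chromosome 2, had a range of 0.42. The profile most like that of Mir181b-1 among all members was that of Mir100 (r = 0.95 over 9 group means).

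Mir145a and Mir143, a pair known from smooth muscle and transcribed together, stood highest at 0.5 h. Mir145a read 11.42, 11.21 and 11.47 at 0.5 h and 9.33, 9.75 and 9.61 at 1 h, a difference of -1.80 ± 0.115 (adjusted p = 3.41e-11). Mir143 read 9.34, 9.38 and 9.41 and 8.29, 8.25 and 8.29 at the same times, a difference of -1.10 ± 0.086 (adjusted p = 1.56e-09). In both, the 0.5 h arrays lay above all 24 other arrays. The signal of Mir145a stayed between 9.33 and 10.07 in the arrays from 1 to 4 h, and then fell by 0.92 ± 0.115 from 4 to 8 h (adjusted p = 1.04e-06). As a description, vector 0.5 h minus vector 0 h was 2.01 ± 0.115 for Mir145a and 1.18 ± 0.086 for Mir143. The r over the 9 group means was 0.93.

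Mir199b had the opposite turn: it was lowest at 0.5 h and climbed to 4 h. Its hairpin lies on the strand opposite Dnm1, and miR-199 strands are known from fibroblasts and other mesenchymal cells. Mir199b read 9.82, 10.24 and 10.21 at 0 h, 7.89, 7.91 and 7.91 at 0.5 h and 8.76, 9.24 and 9.04 at 1 h. The 0.5 h arrays lay below all 24 others, and the rise from 0.5 to 1 h was 1.11 ± 0.123 (adjusted p = 5.91e-07). By 8 h it read 9.51, 10.08 and 9.74, a rise of 1.87 ± 0.123 over 0.5 h (adjusted p = 2.07e-12). The step of 0.43 ± 0.123 from 2 to 4 h (adjusted p = 0.00879) was lost on leaving out vector 4 h array 3 (adjusted p up to 0.0684). From 8 h to 48 h it fell by 0.99 ± 0.123 in the arrays labelled vector (high Isl1, adjusted p = 2.7e-07). It fell by 0.88 ± 0.123 in those labelled ISL1 (low Isl1, adjusted p = 2.29e-06). Mir199a-1, which makes the same 3p strand from the strand opposite Dnm2, showed no such return: its group means from 0.5 to 8 h lay between 9.15 and 9.38, and it passed no test between those hours.

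Of the single-symbol microRNA probe sets, 6 differed by 1 or more between vector cells at 0 and 0.5 h, given here without a test. They were the 6 members Mir199b (-2.19 ± 0.123), Mir130a (-1.60 ± 0.104), Mir301 (-1.29 ± 0.127), Mir199a-1 (-1.20 ± 0.084), Mir145a and Mir143. No other single-symbol microRNA probe set did. Of all 21789 probe sets, 11 were lower by 1 or more (0.0505%) and 63 higher (0.289%). Of the 305 microRNA probe sets, 1.31% were lower and 0.656% higher by that much, and of the members 3.03% and 1.52%. Since the vector 0 h level chose the members, nothing is read from their shares.

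In 4 members all 6 arrays at 0 h, vector and ISL1, lay above all 21 later arrays: Mir199a-1, Mir130a, Mir301 and Mir365-1. No member had all 6 below. The background is 0.454% of all probe sets above and 0.349% below, and since the vector 0 h level chose the members nothing is read from the 3.03% of members above. Mir130a read 7.32, 7.43 and 7.36 in vector and 7.23, 7.47 and 7.38 in ISL1 cells at 0 h, and 5.67, 5.69 and 5.94 in vector cells at 0.5 h. Mir301 read 7.44, 7.06 and 7.31 and 7.91, 7.76 and 7.78 at 0 h, and 5.84, 6.14 and 5.98 at 0.5 h. Later arrays of Mir130a lay between 5.28 and 6.09, and those of Mir301 between 5.75 and 6.53. Time in the mixture and whatever the sample code marks cannot be told apart here.

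The ISL1 arrays at 0 h did not choose the members, so the 48 h arrays were tested against them, although the sample code divides these groups as well. Mir130a, Mir301 and Mir199a-1 were named above because all their 0 h arrays, ISL1 included, lay above all later ones. The direction of their differences from ISL1 0 h was thus fixed in advance, and the p-values below are no separate support for it. Against ISL1 0 h, Mir130a was lower, at -1.59 ± 0.104 in the arrays labelled vector (high Isl1) and at -1.55 ± 0.104 in those labelled ISL1 (low Isl1), with adjusted p = 2.41e-12 and 2.81e-12. Mir301 was lower, at -1.43 ± 0.127 and -1.67 ± 0.127 (adjusted p = 8.63e-10 and 3.22e-11). Mir199a-1 read 10.08, 10.04 and 10.22 in ISL1 cells at 0 h and 8.79, 8.94 and 8.90 in the arrays labelled vector at 48 h, a difference of -1.24 ± 0.084 (adjusted p = 4.77e-12). The profile of Mir130a was most like that of Mir301 (r = 0.94) and next that of Mir199a-1 (r = 0.88), over the 9 group means. Between 2 and 4 h Mir130a rose by 0.53 ± 0.104 (adjusted p = 0.000241), without coming back to its 0 h level. Mir301 rose by 0.48 ± 0.127 between 0.5 and 8 h (adjusted p = 0.0027), and it too stayed below all its 0 h arrays.

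Of the Mir23a, Mir27a and Mir24-2 cluster on chromosome 8, Mir27a had the widest range. It read 9.72, 9.48 and 9.82 at 0.5 h, 9.67, 9.90 and 9.95 at 1 h and 9.29, 9.40 and 9.29 at 8 h. By 48 h it read 8.69, 8.36 and 8.35 in the arrays labelled vector (high Isl1). It read 8.61, 8.56 and 8.34 in those labelled ISL1 (low Isl1), and all these 48 h arrays lay below the 8 h arrays. The differences were -0.86 ± 0.110 and -0.82 ± 0.110 (adjusted p = 4.11e-07 and 1.11e-06). Mir23a averaged 8.83 at 0.5 h, 8.56 at 8 h and 7.95 and 8.03 at 48 h. Mir24-2 averaged 8.89, 8.80, 8.25 and 8.38 in the same order. The median r between the 3 over the 9 group means was 0.97. As a description, Mir27a at 0 h read 9.20, 8.86 and 8.92, so its 0.5 and 1 h arrays lay above all its 0 h arrays.

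Risers in the mixture included members known from immune signalling and growth. Mir6516, whose host is the long transcript Snhg20, had the largest rise from 0.5 to 8 h after Mir199b: it read 7.79, 8.07 and 8.06 at 0.5 h and 9.45, 9.52 and 9.50 at 8 h, higher by 1.52 ± 0.085 (adjusted p = 9.22e-14). As a description, it averaged 8.57 at vector 0 h, above its 0.5 h arrays, and 8 h minus 0 h was 0.92 ± 0.085. It rose by 0.57 ± 0.085 at the first step (adjusted p = 5.22e-05), and its step of 0.27 ± 0.085 from 2 to 4 h (adjusted p = 0.0171) was lost on leaving out vector 2 h array 1 or 2 or vector 4 h array 1 and with arrays centred on their medians (adjusted p up to 0.0746). Mir146b, an NF-kB target gene, read 8.40, 8.34 and 8.53 at 1 h and 9.14, 9.29 and 9.23 at 2 h, a rise of 0.80 ± 0.109 (adjusted p = 3.19e-06), and fell by 0.46 ± 0.109 from 4 to 8 h (adjusted p = 0.00225). Mir155, an inducible gene of macrophages and lymphocytes, read 7.60, 7.46 and 7.39 at 4 h and 7.83, 7.94 and 8.01 at 8 h, a rise of 0.44 ± 0.104 (adjusted p = 0.00235). The 4 measured macrophage and blood markers had 2 higher and 0 lower between 2 and 4 h and 1 higher and 0 lower between 0.5 and 8 h. Their mean lay between 6.89 and 6.99 in the 2 h arrays and between 7.20 and 7.24 in the 4 h arrays. Ptprc, the gene of the pan-leukocyte antigen CD45, averaged 6.24 at 4 h and 6.31 at 8 h. The part of such markers in the members' changes was not tested.

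Mir30d, of a family known to promote fat cell formation, rose and came down within 8 h. It read 7.89, 7.97 and 8.09 at 1 h, 8.61, 8.47 and 8.61 at 2 h, 8.76, 8.41 and 8.46 at 4 h and 7.67, 7.72 and 7.69 at 8 h. The rise from 1 to 2 h was 0.58 ± 0.10 (adjusted p = 8.32e-05), and the difference from 4 to 8 h was -0.85 ± 0.10 (adjusted p = 3.85e-07). Mir152 rose 1 step later, by 0.65 ± 0.093 from 2 to 4 h (adjusted p = 4.65e-06), with a difference of -0.57 ± 0.093 from 4 to 8 h (adjusted p = 4.36e-05). In both genes, the arrays of each step did not overlap. Unlike Mir30d, Mir152 was lower at 0.5 h (mean 7.80) than at vector 0 h (8.53, given without a test). At 8 h it averaged 8.15, still above 0.5 h by 0.35 ± 0.093 (adjusted p = 0.00284). Mir677 read 7.40, 7.47 and 7.63 at 1 h and 8.01, 8.01 and 8.01 at 2 h (higher by 0.51 ± 0.094, adjusted p = 0.000171). Mir697 had a step of 0.28 ± 0.088 from 4 to 8 h (adjusted p = 0.0198) that was lost on leaving out vector 4 h array 3 or vector 8 h array 1 or 3, with arrays centred on their medians and with only the arrays of these groups fitted (adjusted p up to 0.181), and Mir149 a step of 0.42 ± 0.114 from 0.5 to 1 h (adjusted p = 0.039) that was lost on leaving out vector 0.5 h array 2 or 3 or vector 1 h array 2 or 3 (adjusted p up to 0.196).

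Mir193a and Mir365-2, neighbours on chromosome 11, rose while Mir365-1 on chromosome 16, which makes the same 3p strand as Mir365-2, did not. Mir193a read 7.19, 6.92 and 7.04 at 0.5 h and 7.83, 7.78 and 7.92 at 8 h, higher by 0.79 ± 0.112 (adjusted p = 1.59e-06). Mir365-2 rose by 0.53 ± 0.073 between the same times (adjusted p = 1.13e-06) and by 0.30 ± 0.073 from 2 to 4 h (adjusted p = 0.0028). Mir365-1 read 6.69, 6.37 and 6.55 at 0.5 h and 6.30, 6.04 and 6.06 at 8 h, a difference of -0.41 ± 0.133 (adjusted p = 0.0147) that was lost on leaving out vector 0.5 h array 1 or vector 8 h array 2 or 3 (adjusted p up to 0.083).

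Mir17hg, the host transcript of the Myc-responsive cluster of miR-17 to miR-92, rose by 0.72 ± 0.132 from 1 to 2 h (adjusted p = 0.000186), with arrays of 6.94, 6.84 and 6.67 and 7.71, 7.21 and 7.69. Mir92b, a separate gene with the seed of Mir25, had a range of 0.42. The related cluster in Mcm7, a helicase gene of DNA replication, gave Mir25 at 8.87, 8.74 and 8.82 at 0.5 h and 9.78, 9.13 and 9.55 at 8 h, higher by 0.68 ± 0.132 (adjusted p = 0.000116). Mir93 rose by 0.44 ± 0.086 (adjusted p = 0.000141), and the rise of 0.28 ± 0.104 for Mir106b (adjusted p = 0.0309) was lost on leaving out vector 0.5 h array 2 or 3 or vector 8 h array 2 or 3 (adjusted p up to 0.105).

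Mir568 fell mainly in a single step. It read 9.85, 9.60 and 9.78 at 2 h and 8.62, 8.68 and 8.68 at 4 h, a difference of -1.08 ± 0.112 (adjusted p = 3.93e-08) with no overlap. A further step of -0.35 ± 0.112 from 4 to 8 h (adjusted p = 0.0227) was lost on leaving out vector 4 h array 2 or 3 or vector 8 h array 1 or 3 (adjusted p up to 0.125). Mir218-1, in an intron of the axon guidance gene Slit2, read 9.82, 10.09 and 9.82 at 1 h and 9.13, 8.79 and 8.94 at 2 h, a difference of -0.96 ± 0.144 (adjusted p = 1.32e-05). Mir218-2, which makes the same 5p strand elsewhere, had a step of 0.39 ± 0.135 from 2 to 4 h (adjusted p = 0.0313) that was lost on leaving out vector 2 h array 1 or 3 or vector 4 h array 2 or 3 (adjusted p up to 0.162). Mir15a, of the miR-15 and miR-16 cell cycle group, fell by 0.59 ± 0.133 from 2 to 4 h (adjusted p = 0.00122). Mir222 fell by 0.51 ± 0.120 between 0.5 and 8 h (adjusted p = 0.000979). Mir224, in an intron of Gabre, read 6.04, 6.58 and 6.30 at 1 h and 7.23, 7.08 and 7.35 at 2 h, a rise of 0.91 ± 0.183 (adjusted p = 0.000474). Its mean of 7.22 at 2 h was near its vector 0 h mean of 7.15.

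Over the 10 comparisons tested, 62 of the 132 members passed in none and 24 passed in 5 or more. The matching shares of all probe sets were not computed, so nothing is read from these counts. Mir100hg, Mir155, Mir199b, Mir99a and Mir99ahg 10436590 and 10436596 passed in 8 each. Of the pairs of members that make an identical strand, 12 in all, r over the 9 group means ran from -0.28 to 0.87 with a median of 0.05, as a description. In 4 of these pairs a member had a range of 1 or more, and there r was 0.87 (Mir181b-1 and Mir181b-2), 0.55 (Mir199a-1 and Mir199b), -0.12 (Mir218-1 and Mir218-2) and -0.28 (Mir365-1 and Mir365-2).

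**Figure D3:**
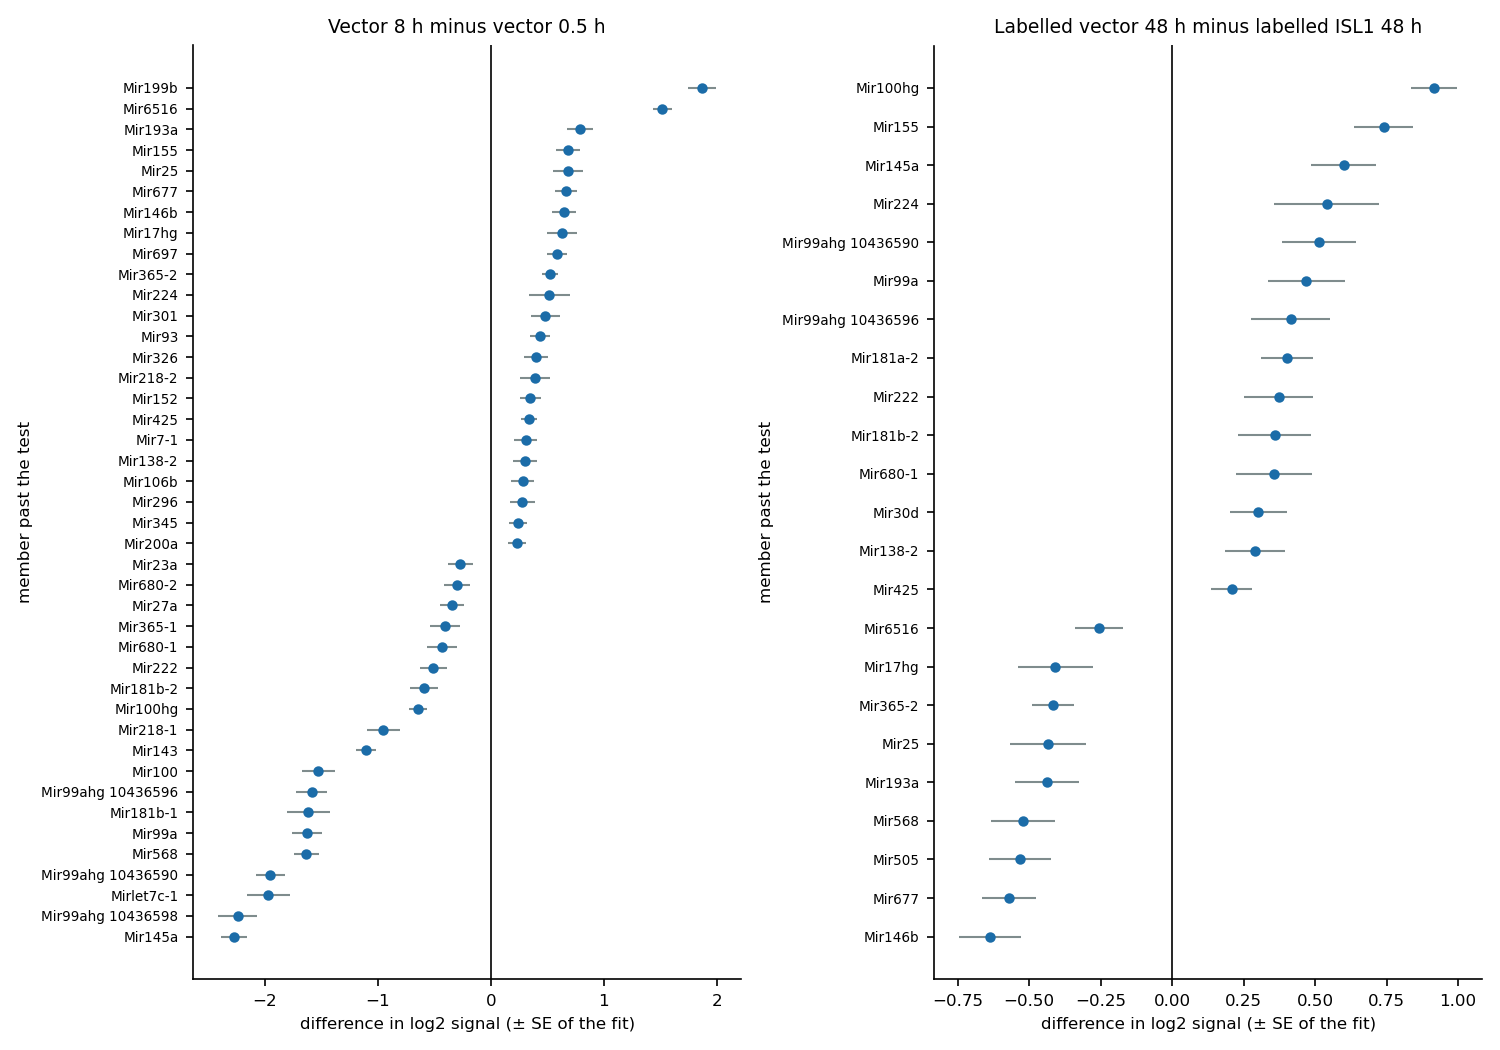
Difference in log2 signal ± SE of the fit (horizontal axis) for the members that passed the test, named on the vertical axis. The left panel holds the 42 members for vector 8 h minus vector 0.5 h, led by Mir199b at 1.87 and Mir145a at -2.28. The right panel holds the 23 members for the arrays labelled vector minus those labelled ISL1 at 48 h, led by Mir100hg at 0.92 and Mir146b at -0.64.

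At 48 h the groups labelled vector (high Isl1) and labelled ISL1 (low Isl1) differed in 23 members, 14 higher and 9 lower in the first. The background was 27.9% of all probe sets, 14.0% higher and 13.9% lower, and the count is 17.4% of members. It was 15 without labelled vector 48 h array 1, and 11 of the 23 calls held under every alternative. No difference reached 1 on the log2 scale. Mir100hg read 9.68, 9.43 and 9.31 in the arrays labelled vector and 8.61, 8.55 and 8.51 in those labelled ISL1, higher in the first by 0.92 ± 0.080 (adjusted p = 1.47e-09). Mir155 read 8.44, 8.15 and 8.32 and 7.35, 7.74 and 7.60, a difference of 0.74 ± 0.104 (adjusted p = 3.25e-06). Mir145a read 9.07, 8.82 and 8.83 and 8.23, 8.44 and 8.26 (0.60 ± 0.115, adjusted p = 0.000195). In each of these the arrays did not overlap.

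Mir99ahg 10436590 was higher by 0.52 ± 0.129 in the arrays labelled vector (adjusted p = 0.00297). The difference of 0.47 ± 0.136 for Mir99a (adjusted p = 0.00948) was lost on leaving out labelled vector 48 h array 1 or labelled ISL1 48 h array 3 (adjusted p up to 0.0963). That of 0.54 ± 0.183 for Mir224 (adjusted p = 0.0273) was lost on leaving out labelled vector 48 h array 1 or 3 or labelled ISL1 48 h array 3 (adjusted p up to 0.207). Lower in the arrays labelled vector (high Isl1) was Mir146b, at 8.07, 8.06 and 7.98 against 8.74, 8.77 and 8.50, a difference of -0.64 ± 0.109 (adjusted p = 4.69e-05). Of these 2 members tied to inflammatory signalling, Mir155 was thus higher and Mir146b lower in the same arrays. Mir677 was lower, at -0.57 ± 0.094 (adjusted p = 2.98e-05) and Mir505 at -0.53 ± 0.110 (adjusted p = 0.00043). Mir568 was lower, at -0.52 ± 0.112 (adjusted p = 0.000664) and Mir193a at -0.44 ± 0.112 (adjusted p = 0.00371). The difference of -0.43 ± 0.132 for Mir25 (adjusted p = 0.014) was lost on leaving out labelled vector 48 h array 3 or labelled ISL1 48 h array 2 (adjusted p up to 0.0963). All 6 adipocyte markers were lower in the arrays labelled vector, with a median difference of -1.85, and their part in the members' differences was not tested.

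Against 8 h, more members were lower than higher in both 48 h groups. Isl1 itself differed from vector 8 h by 4.74 ± 0.108 in the arrays labelled vector and by -0.37 ± 0.108 in those labelled ISL1. In the first comparison time and Isl1 signal thus cannot be told apart. The arrays labelled vector (high Isl1) had 7 higher (5.30%) and 31 lower members (23.5%). The background was 37.1%, of which 18.3% higher and 18.8% lower. Those labelled ISL1 (low Isl1) had 7 higher (5.30%) and 20 lower (15.2%), beside a background of 30.2%, of which 15.7% higher and 14.6% lower. The share of lower members in the arrays labelled ISL1 was thus near that of all probe sets, and the share of higher members was below it. The median difference was -0.13 and -0.10 for members, beside -0.06 and -0.02 for all probe sets. In both groups 6 of 7 fibroblast markers were lower than at 8 h, and of 6 adipocyte markers 2 were higher and 1 lower in the arrays labelled vector and 6 were higher in those labelled ISL1. Mir100hg fell by 1.83 ± 0.080 in the arrays labelled ISL1 (adjusted p = 1.28e-15) and fell by 0.92 ± 0.080 in those labelled vector (adjusted p = 7.41e-10). In the arrays labelled ISL1, Mir218-1 fell by 1.01 ± 0.144 (adjusted p = 3.15e-06) and Mir145a fell by 0.78 ± 0.115 (adjusted p = 5.41e-06), while Mir568 rose by 0.76 ± 0.112 (adjusted p = 5.37e-06). The first 2 had already fallen between 0.5 and 8 h, as had Mir568. The difference of -0.71 ± 0.183 for Mir224 there (adjusted p = 0.00318) was lost with only the arrays of these groups fitted (adjusted p up to 0.0545). In the arrays labelled vector, Mir146b fell by 0.72 ± 0.109 (adjusted p = 5.47e-06) and Mir677 fell by 0.70 ± 0.094 (adjusted p = 9.24e-07), while Mir155 rose by 0.38 ± 0.104 (adjusted p = 0.00471).

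Against ISL1 0 h, which shares a high Isl1 signal with the arrays labelled vector at 48 h, the latter had 6 higher and 23 lower members (background 33.5%, of which 14.8% higher and 18.8% lower). All 6 adipocyte markers were higher and all 7 fibroblast markers lower. Mir155 read 7.33, 7.07 and 7.20 in ISL1 cells at 0 h and was higher by 1.10 ± 0.104 (adjusted p = 2.41e-09), with no overlap. Mir425 was higher by 0.41 ± 0.072 (adjusted p = 4.41e-05). Mir181b-1 was lower, at -1.62 ± 0.191 (adjusted p = 1.3e-07), Mir100hg at -1.52 ± 0.080 (adjusted p = 4.56e-14) and Mir224 at -1.21 ± 0.183 (adjusted p = 6.18e-06). The smaller rises of Mir138-2 (0.33 ± 0.104), Mir146b (0.29 ± 0.109) and Mir200a (0.22 ± 0.077) had adjusted p = 0.015, 0.0398 and 0.0315. The call of Mir138-2 was lost on leaving out labelled vector 48 h array 1 or ISL1 0 h array 2 (adjusted p up to 0.0732), that of Mir146b was lost on leaving out any labelled vector 48 h array or ISL1 0 h array 1 or 3 and with arrays centred on their medians (adjusted p up to 0.175), and that of Mir200a was lost on leaving out labelled vector 48 h array 1 or 3 or ISL1 0 h array 3 and with a trended prior variance (adjusted p up to 0.153).

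The arrays labelled ISL1 at 48 h (low Isl1) against ISL1 0 h (high Isl1) gave the most calls, 21 higher and 27 lower (background 43.2%, of which 22.2% lower), and 27 of these 48 held under every alternative. All 6 adipocyte markers were higher and 5 of 7 fibroblast markers lower. Mir146b was higher by 0.93 ± 0.109 (adjusted p = 7.97e-08), Mir193a by 0.52 ± 0.112 (adjusted p = 0.000389) and Mir25 by 0.46 ± 0.132 (adjusted p = 0.00576). Mir100hg was lower, at -2.43 ± 0.080 (adjusted p = 1.62e-18), Mir181b-1 at -1.90 ± 0.191 (adjusted p = 5.65e-09) and Mir224 at -1.75 ± 0.183 (adjusted p = 1.12e-08). Mir99ahg 10436590 was lower, at -1.46 ± 0.129 (adjusted p = 5.65e-10). The rise of 0.47 ± 0.187 for Mir129-1 (adjusted p = 0.0448) was lost on leaving out vector 0.5 h array 2, vector 4 h array 1, vector 8 h array 3, labelled vector 48 h array 1, ISL1 0 h array 1 or 2 or labelled ISL1 48 h array 2 or 3 and with all probe sets adjusted together (adjusted p up to 0.236). That of 0.45 ± 0.153 for Mir320 (adjusted p = 0.0181) was lost on leaving out ISL1 0 h array 1 or labelled ISL1 48 h array 2 (adjusted p up to 0.108), and that of 0.37 ± 0.104 for Mir155 (adjusted p = 0.00559) was lost on leaving out labelled ISL1 48 h array 2 (adjusted p up to 0.0517).

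Before induction, ISL1 minus vector cells was a description only, since vector 0 h chose the members. The median difference was -0.09 over members and -0.01 over all probe sets, and 109 of 132 members differed by less than 0.25. Mir218-1 had the largest negative difference (-1.54 ± 0.144), with vector arrays at 10.30, 9.63 and 9.68 and ISL1 arrays at 8.47, 8.29 and 8.23. Mir224 had the largest positive one (1.06 ± 0.183), with 7.03, 7.03 and 7.39 and 8.25, 8.24 and 8.12. In both genes the arrays did not overlap. Their hosts Slit2 and Gabre, described next, differed in the same direction.

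Some of these profiles resembled that of the host gene. A host on the same strand with a probe set of its own was found for 46 members, and r over the 9 group means was 0.7 or more for 12 of the 46, with a median of 0.43. Among the 6 pairs whose member had a range of 1 or more, 5 had r of at least 0.7. These 5 include Mir100 and Mir125b-1, which share the host Mir100hg, itself a member. The remaining pair, Mir15a with Dleu2, had r = 0.69. The Dleu2 group means ran from 3.67 to 4.27, near the lowest value of all arrays, 3.35. Slit2 averaged 13.11 in vector and 12.00 in ISL1 cells at 0 h and had r = 0.91 with Mir218-1. It still averaged 13.18 at 2 h, when the Mir218-1 signal was already low, and between 0.5 and 8 h it fell by 0.69 ± 0.068 (adjusted p = 3.43e-09). Gabre, the host of Mir224, had r = 0.79 with it. At 48 h Gabre was higher in the arrays labelled vector (high Isl1), by 1.36 ± 0.092 (adjusted p = 1.26e-11).

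In other pairs the host and the member differed in the time or the size of the change, some of them with a high r. Ska2, the host of Mir301 and a kinetochore gene, had r = 0.72 with it but averaged 10.94 at 0 h, 10.89 at 0.5 h and 9.34 at 2 h, while Mir301 was low from 0.5 h on. Spaca6, the host of Mirlet7e, Mir125a and Mir99b, averaged 10.14 at vector 0 h, 9.40 at 0.5 h and 9.05 at 1 h, with r = 0.94, 0.80 and 0.87. The range of Spaca6 was 1.25 and that of Mir99b 0.17. Mcm7 averaged 12.00 in ISL1 cells at 0 h and 10.99 in vector cells, where Mir25 averaged 9.08 and 8.95, and r was 0.43. In 8 pairs the host had a range of 1 or more and the member one under 0.5. Igf2, the host of Mir483, ranged over 4.55 against 0.43 for Mir483, and Pde2a, the host of Mir139, over 2.33 against 0.20. Here too it was not tested whether the member signals stand above background.

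**Figure D4:**
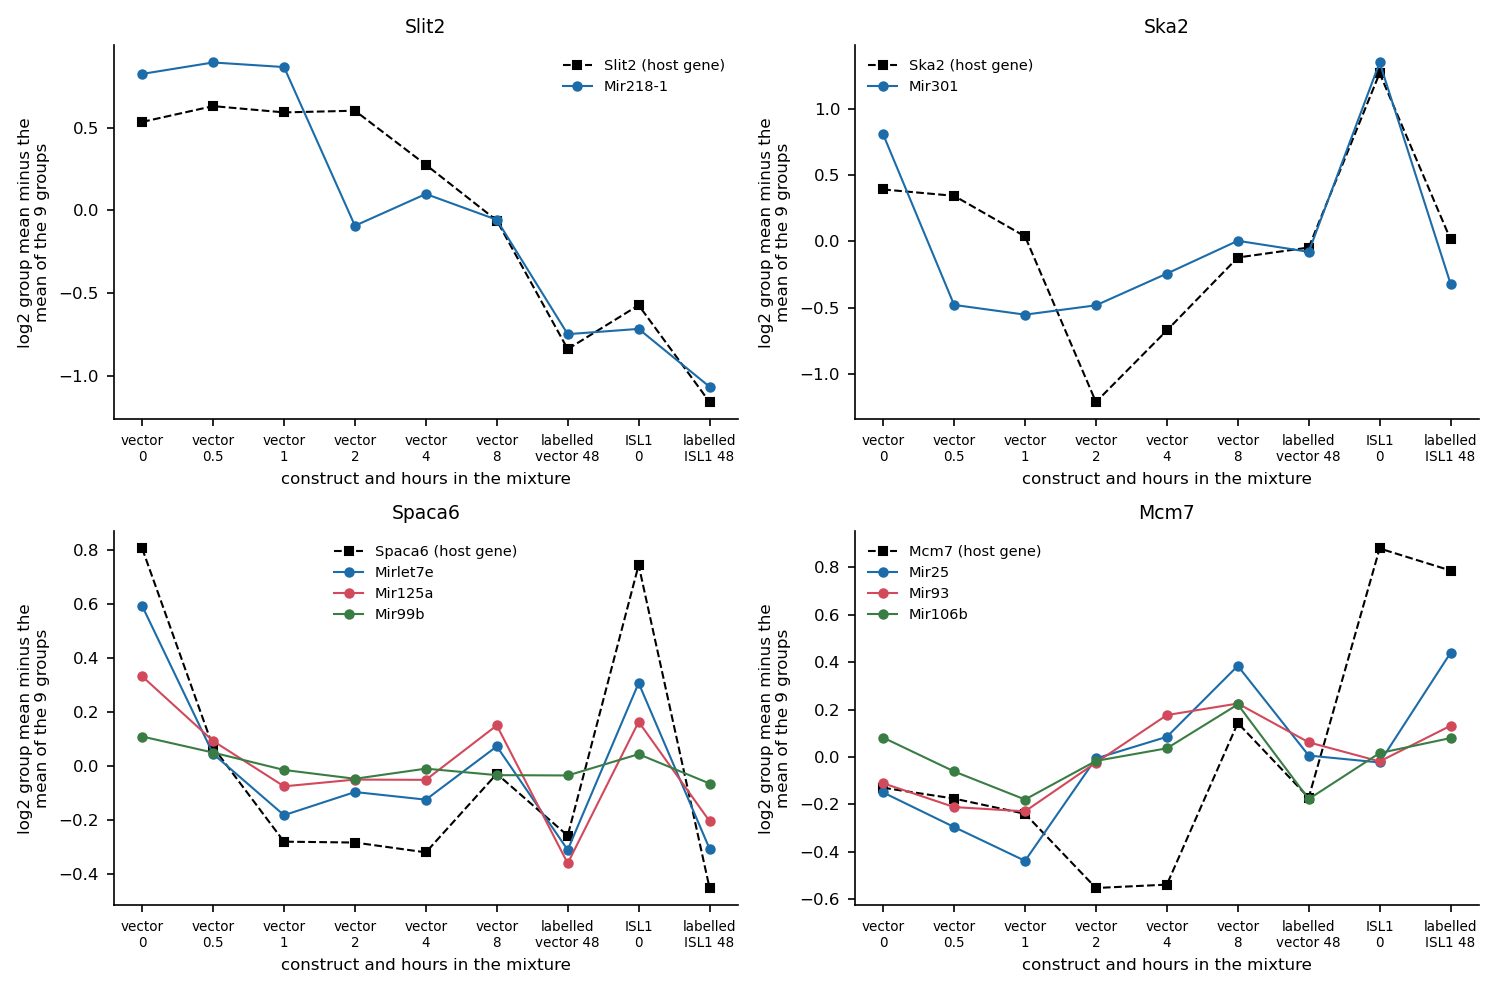
Group means of a host gene (black squares, dashed) and of the microRNA members inside it (coloured circles), each minus its own mean over the 9 groups, in log2 units, against construct and hours in the mixture. Mir218-1 drops at 2 h, before Slit2 does, and Mir301 drops at 0.5 h where Ska2 does not. Spaca6 moves more than its 3 members, and Mcm7 is highest in ISL1 cells at 0 h where Mir25 is not.

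The genes that process microRNAs moved in both directions. Of 35 measured, 22 (62.9%) passed between 0.5 and 8 h, beside the background of 40.8%. Of these, 13 rose and 9 fell, with a median difference of 0.05, the same as over all probe sets. The nuclear export genes Xpo5 (exportin 5) and Ran rose by 0.82 ± 0.060 and 1.06 ± 0.065 (adjusted p = 1.68e-11 and 6.06e-13). Dgcr8, the partner of Drosha, rose by 0.46 ± 0.086 and Dicer1 by 0.39 ± 0.084 (adjusted p = 6.63e-05 and 0.000366), while Drosha differed by 0.06 ± 0.086 and did not pass. The Argonaute genes split: Ago2 rose by 0.57 ± 0.083, Ago1 fell by 0.86 ± 0.088 and Ago4 fell by 0.65 ± 0.073 (adjusted p = 2.08e-06, 7.26e-09 and 3.45e-08). Mov10, an Argonaute-bound helicase, fell by 1.46 ± 0.071 (adjusted p = 6.58e-15), and Adarb1, an RNA editing enzyme gene, rose by 1.08 ± 0.072 (adjusted p = 2.38e-12).

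At the first step, 0.5 to 1 h, 1 of the 35 (2.86%), Zc3h12a, passed, beside a background of 3.38%. At 48 h, 8 were higher and 9 lower in the arrays labelled vector (high Isl1) than in those labelled ISL1 (low Isl1). These were 48.6% of the list, beside a background of 27.9%, of which 14.0% higher and 13.9% lower. Drosha was higher by 0.34 ± 0.086 (adjusted p = 0.00309), and Dicer1 was lower, at -0.49 ± 0.084 (adjusted p = 4.58e-05), as were Ran at -0.50 ± 0.065 (adjusted p = 9.98e-07) and Xpo5 at -0.32 ± 0.060 (adjusted p = 0.000157). Ago2 differed by 0.10 ± 0.083 and did not pass.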

How the data were processed

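Total RNA of 27 cultures was measured on a mouse whole-transcript gene array. The deposited values are log2 signals made by the authors with RMA, per the submitters' processing notes; the log2 scale was read from their range (3.35 to 14.85), and array medians lay between 7.89 and 8.07. The number of arrays, 3 a group, limits the precision.

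Gene names came from the platform annotation: 21789 probe sets have 1 symbol, 1621 several and 5443 none. Probe sets with several symbols were named from none. The members and the gene lists were chosen with earlier results of these data known. limma 3.58.1 in R 4.3.3 fitted 1 mean per group over all 27 arrays, with Benjamini-Hochberg adjustment over the 21789 probe sets and a threshold of 0.05. SE is that of the fit. The F test covers vector cells from 0.5 to 8 h. The fit was tested on simulated data. By rule, the text names the 6 largest called rises and 6 largest called falls of each comparison whose arrays do not overlap, the 3 members highest at vector 0 h, the 3 nearest on each side of the level of 7, and the members of microRNA groups known from fat cells, the cell cycle or inducible signalling; others were named for a shared seed, a host or a place in a cluster, after their values were seen. Profiles were compared by Pearson's r over the 9 group means. Alternatives were another level for members, a filter on dim probe sets, other scaling, a trended prior, a narrower set of arrays, a replicate block and leaving out each array.

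Replicate numbers were checked for pairing: in 4 of 36 pairs of groups all 3 correlations of deviations exceeded 0.1. Of the comparisons tested, these were vector 0.5 with 1 h (0.58, 0.35 and 0.30) and the 48 h groups (0.32, 0.53 and 0.20), which the numbers thus pair by the rule used. The block was kept as an alternative there, and the other comparisons were not taken as paired. Sequences and coordinates are those of RefSeq for GRCm38.p6. The members' hosts are RefSeq genes that contain the hairpin.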

Additional observations from a re-analysis of the deposited data

How the results depend on the processing

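The 261 called values of members over the 10 comparisons were refitted 9120 times under the alternatives. None reversed, 461 refits missed the threshold, and 97 values missed it under at least 1 alternative. With a level of 7.5 for members the counts were 14 in place of 22 (1 to 2 h), 14 in place of 23 (48 h groups against each other) and 31 in place of 48 (labelled ISL1 48 h against ISL1 0 h), since fewer probe sets are members. Leaving out 1 array gave 9 to 13 members (0.5 to 1 h), 17 to 24 (1 to 2 h), 8 to 13 (2 to 4 h), 5 to 16 (4 to 8 h), 34 to 48 (0.5 to 8 h) and 43 to 55 (F test). It gave 15 to 26 between the 48 h groups, 21 to 33 and 30 to 49 for labelled ISL1 and labelled vector 48 h against 8 h, and 23 to 30 and 35 to 51 for labelled vector and labelled ISL1 48 h against ISL1 0 h. The causes were not tested. With the replicate number as a block the counts in the same order of comparisons were 12, 22, 12, 9, 41 and 50, then 22, 27, 37, 29 and 47, and no count moved by over 1.5 times. In the comparisons that the numbers pair, 0.5 to 1 h and the 48 h groups, the block ended 1 call, that of Mir680-1 at 48 h. With arrays centred on their medians, 73.1% of all called probe sets were higher at 0.5 to 1 h, in place of 52.1%, and 43.7% at 4 to 8 h, in place of 57.0%. With 3 arrays a group, small differences of single members are the least firm, and the labels at 48 h, read against the Isl1 signal, leave the constructs there unsettled.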

Other observations

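Some microRNA genes outside the 132 changed level more than most members, and their values are given without a test. Mir18, of the miR-17 to miR-92 cluster, averaged 5.82 in vector cells at 0 h, 5.34 at 0.5 h, 7.47 at 2 h and 8.14 at 4 h. A probe set that carries both Mir92-1 and Mir17hg averaged 6.32 at 0.5 h, 7.45 at 2 h and 7.66 at 4 h, the hours at which the Mir17hg member was higher. Mir29a averaged 5.91 at 0 h, 7.68 at 4 h and 6.53 at 8 h, and 5.31 in the 48 h arrays labelled ISL1. These were 2 of 10 single-symbol probe sets below the level that reached 7 in another group.

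Of the microRNA probe sets with several symbols, 61 in all, 23 had a group mean of at least 7. Of these 23, 3 shared C430049B03Rik, and all 3 were lower at 1 h than at 0.5 h. The one with Mir322 averaged 7.54 and then 6.14, the one with Mir503 8.19 and then 7.27, and the one with Mir351 10.22 and then 8.85, with 2 h means of 6.83, 7.79 and 9.66. The probe set of Mir22hg and Mir22 averaged 10.86 at 0.5 h, 9.51 at 8 h and 8.89 in the 48 h arrays labelled ISL1. The probe set of Mir675 and Supt6 averaged 10.37 in the 48 h arrays labelled ISL1 (low Isl1), and its other 8 group means lay between 8.04 and 8.84. The probe set of Mir1291 and Snora34 averaged 6.72 at 0.5 h and 8.28 at 8 h.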
